A study of Mus musculus with 16 samples.

Results

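Polyamine metabolism genes were examined in mouse hamstring muscle, probe by probe, from 10 listed genes: the synthesis enzymes Odc1, Amd1, Amd2, Srm and Sms, the breakdown enzymes Sat1 and Smox, and the regulators Oaz1, Oaz2 and Azin1. Members were all probes whose symbol in the deposited array table equals a listed name, which gave 13 of 25697 probes, for 7 of the 10 genes. Amd1, Sat1 and Oaz1 had no probe under those symbols and are not analysed here. Of the 13 probes, 12 passed the filter on dim probes (a detection p-value under 0.05 on at least 3 of the 15 arrays used), as did 14763 probes of the whole array, and these 12 stand for 6 genes.

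The RNA came from whole muscle of female mice, taken 2 days after surgery and hybridised to Illumina bead arrays. SCI+CDTX mice had spinal cord injury (SCI) in the thoracic spine together with an injection into the muscle of cardiotoxin (CDTX), a venom component that lyses muscle fibres. SCI+Saline mice had the same lesion with a saline injection, Sham+CDTX mice had sham surgery with CDTX, and Sham+Saline mice had sham surgery with saline. Strain and age are not in the labels. The series' design text names SCI+CDTX as the group in which neurogenic heterotopic ossification, bone forming in muscle after damage to the nervous system, goes on to develop. Each group had 4 arrays, and 3 remained in SCI+CDTX because the authors left its replicate 2 out of their final analysis.

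Polyamines (putrescine, spermidine and spermine) are small positively charged molecules that bind RNA and DNA and are needed for translation and cell growth. Ornithine decarboxylase makes putrescine, S-adenosylmethionine decarboxylase supplies the aminopropyl groups, and spermidine synthase and spermine synthase add them in turn. Spermine oxidase and spermidine/spermine acetyltransferase run the other way, antizymes bind ornithine decarboxylase and send it for degradation, and antizyme inhibitors release it. In skeletal muscle, Odc1, Amd and Smox are known as androgen-responsive genes, and Smox is known to fall in denervated and unused muscle.

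The probes behind the results are shown by their opening 30 bases of 50, as the array table gives them, because Srm and Smox were each read at several places along the transcript and the agreement of those places carries the finding. Capitals mark the bases that the 2 brightest Smox probes share within the stretches printed. These 2 probes overlap by 49 of 50 bases and so are no independent check of each other.
Odc1 ILMN_3008406: cacttttcagacattgatactaacgtgtgc
Srm ILMN_2630641: gcaacgtgctggttctggatggcgtcatcc
Srm ILMN_1225880: gctgaaatactataactcggacatgcaccg
Srm ILMN_2809611: gtgccactgtgacaccacccgagacctcaa
Smox ILMN_2597030: tTCCTTGAAGAACCACTAACTCGTGACTGC
Smox ILMN_1247267: TCCTTGAAGAACCACTAACTCGTGACTGCt
The table places the Odc1 probe at 12qA1.1 on chromosome 12, from base 2324 of its transcript. The Srm probes lie at 4qE2 on chromosome 4, from bases 286, 932 and 1027, and the Smox probes printed lie at 2qF1 on chromosome 2, from bases 1812 and 1814 as the table lists them, although their sequences are offset by 1 base. The other 3 Smox probes start at bases 592, 791 and 1596. The table does not say whether a probe lies in coding sequence or a UTR, and the genome build is not given in the sources used here.

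Levels are log2 intensities after background correction and quantile normalization, and fold changes are differences of group means on that scale. For dim probes their size depends on the processing. The falls of the dim Smox and Amd2 probes with CDTX in sham mice were smaller after median scaling, and those of the dim Smox probes also with uncorrected background. Mean raw intensity per array ran from 230 to 373 and was lowest in Sham+Saline, at 230 to 277. The 12 muscle fibre markers checked were all above background, with summed intensities from 132991 to 166066 over the 15 arrays, so the fibre genes that define muscle were present in every group. All SCI arrays were on 1 slide and all sham arrays on the other, so surgery and slide cannot be told apart, while the CDTX comparisons lie within a slide. The 4 Sham+CDTX arrays and the excluded SCI+CDTX replicate 2 stood apart in a score of how far probes of the same gene differ (component 1 over 2779 genes that are not members), at 0.347 to 0.391 and 0.28, against -0.266 to -0.0677 on the other arrays. Results of the member probes with this score as a covariate, over all 16 arrays, are given where they end a call or move its value by over 1.5 times, and those of other pathway genes are given with them. The score nearly coincides with the Sham+CDTX group. Within groups its slope rests mostly on the excluded array, at 0.28 against -0.119 to -0.0677 on the other SCI+CDTX arrays. Comparisons and interactions that use Sham+CDTX therefore lose precision in that fit, and a call lost or turned there does not decide whether the reported change holds. In whole tissue, fewer cells of a type and less RNA per cell cannot be told apart.

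**Figure D1:**
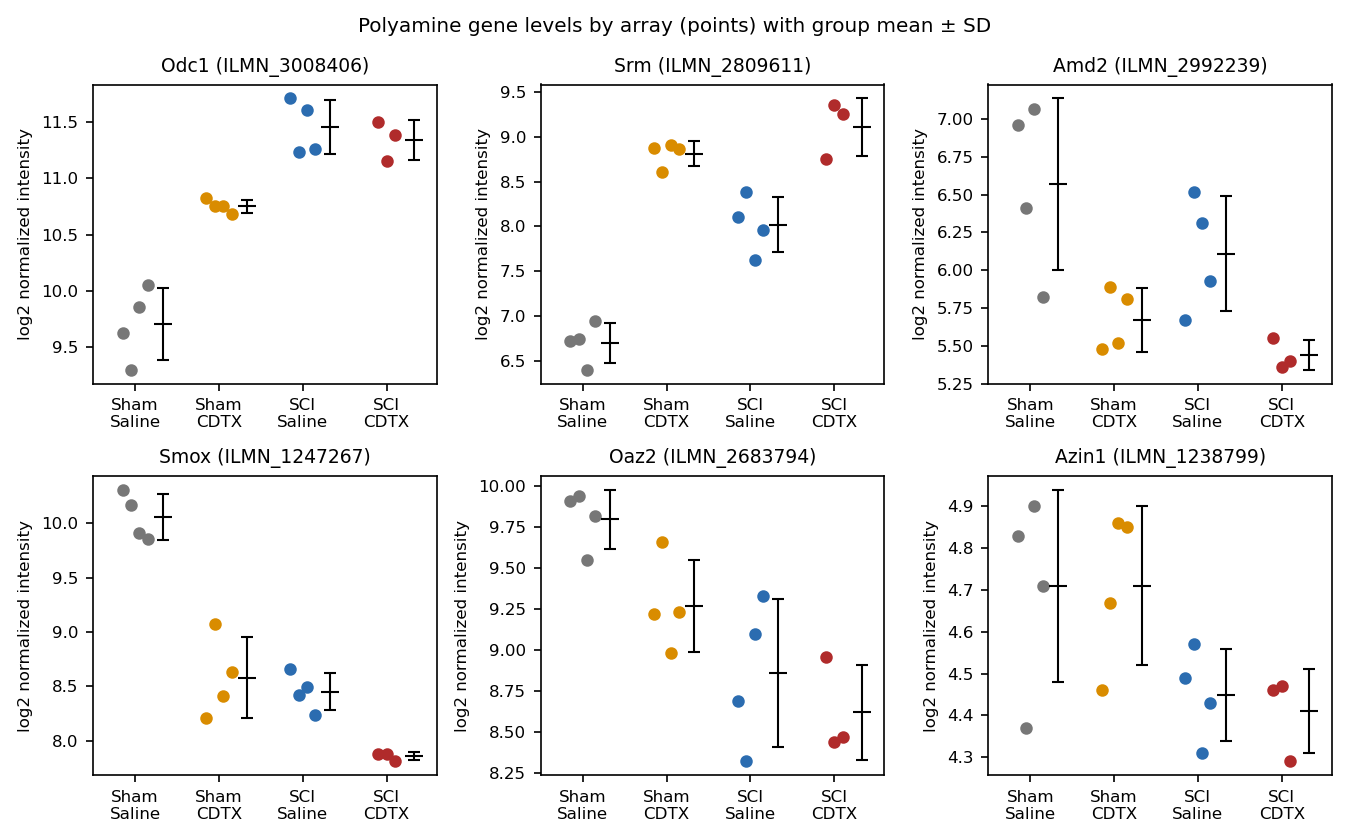
Log2 normalized intensity of 1 probe of each of 6 polyamine genes, with a point for each of the 15 arrays and, beside the points, the group mean with its SD (n = 3 in SCI+CDTX and 4 in the others). Odc1 and Srm were lowest in Sham+Saline, Smox was highest there, and the y axes differ between panels and do not start at 0.

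Odc1, the enzyme that makes putrescine and the main control point of the pathway, rose with SCI, and in sham mice it rose with CDTX. Its levels in Sham+Saline were 9.63, 9.3, 9.86 and 10.05. In Sham+CDTX they were 10.82, 10.75, 10.75 and 10.68. SCI+Saline arrays stood at 11.71, 11.23, 11.6 and 11.26, and SCI+CDTX arrays at 11.5, 11.15 and 11.38. Every Sham+CDTX array lay above every Sham+Saline array and below every SCI array, while the SCI groups overlapped. The group means were 9.71 ± 0.32, 10.75 ± 0.06, 11.45 ± 0.24 and 11.34 ± 0.18, in the order just given (SD, n = 4, 4, 4 and 3). The order of levels was therefore Sham+Saline, Sham+CDTX and then the SCI groups, whose means lay within the spread of their arrays. Raw intensity gave the same order without normalization, from 435.8 to 976.8 in Sham+Saline, 1905.8 to 2028.2 in Sham+CDTX and 2368.4 to 4118.5 in the SCI arrays used. The authors' deposited table gives mean intensities of 2483.9 for SCI+CDTX, 1688.8 for Sham+CDTX, 3069 for SCI+Saline and 771.2 for Sham+Saline.

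SCI raised Odc1 by 1.74 log2 in saline muscle (3.34-fold, SE 0.16, limma adjusted p = 3.1e-07) and by 0.59 in CDTX muscle (SE 0.18, adjusted p = 0.0158). CDTX raised it by 1.04 in sham mice (2.06-fold, SE 0.16, adjusted p = 3.18e-05). In SCI mice the CDTX difference was -0.11 with a 95% interval from -0.48 to 0.26 (adjusted p = 0.66). The CDTX effect in SCI mice was lower than that in sham mice by 1.15 log2, stated as an interaction of -1.15 (SE 0.24, adjusted p = 0.00181). With the probe difference score as a covariate, the CDTX effect in sham mice was 0.11 (adjusted p = 0.891) and the interaction -0.3 (adjusted p = 0.809), and neither was called. Median scaling gave a larger interaction, -1.92 (adjusted p = 0.000193). In the score fit the rise with SCI was 1.65 in saline muscle (adjusted p = 1.49e-06) and 1.35 in CDTX muscle (adjusted p = 0.0229). Without the score, the call in CDTX muscle was lost under median scaling (0.47, adjusted p = 0.124), without SCI+CDTX replicate 1 (0.52, adjusted p = 0.0695) and without SCI+CDTX replicate 4 (0.57, adjusted p = 0.0562). The excluded array had the highest raw Odc1 intensity of all 16, at 5294.9.

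Srm, spermidine synthase, which turns putrescine into spermidine, rose with CDTX under both surgeries and with SCI in saline muscle, on all 3 of its probes. On the brightest, ILMN_2809611, Sham+Saline arrays stood at 6.72, 6.75, 6.4 and 6.94, and Sham+CDTX arrays at 8.87, 8.61, 8.91 and 8.86. SCI+Saline arrays stood at 8.1, 8.38, 7.63 and 7.96, and SCI+CDTX arrays at 8.75, 9.35 and 9.25. Within each surgery the CDTX and saline arrays did not overlap, and the CDTX groups overlapped each other. Means were 6.7 ± 0.22 in Sham+Saline, 8.02 ± 0.31 in SCI+Saline, 8.81 ± 0.14 in Sham+CDTX and, for SCI+CDTX, 9.11 ± 0.32 (SD, n = 4, 4, 4 and 3), so the order differed from that of Odc1. In raw intensity, Sham+Saline arrays lay at 130.6 to 169 and SCI+CDTX arrays at 620.5 to 818.1.

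CDTX raised this Srm probe by 2.11 log2 in sham mice (4.31-fold, SE 0.17, limma adjusted p = 2.97e-08) and by 1.1 in SCI mice (2.14-fold, SE 0.19, adjusted p = 0.000142). The other probes gave 1.39 and 1.8 in sham mice and 0.93 and 0.85 in SCI mice, all called. SCI raised the 3 probes by 0.86, 1.27 and 1.32 in saline muscle, all called, with the largest adjusted p at 0.000955. In CDTX muscle the SCI differences were 0.39, 0.32 and 0.3, and none was called. For ILMN_2809611 the 95% interval ran from -0.09 to 0.7, and ILMN_2630641 was called with array weights (0.34, adjusted p = 0.042), with no background correction (0.29, adjusted p = 0.0429) and with only the groups compared in the fit (0.39, adjusted p = 0.0254). All 9 calls of the 3 probes in these 3 comparisons held under every alternative listed in the methods that was run on them, with smaller values where background was not corrected (0.84 to 1.5, 0.61 to 0.9 and 0.48 to 0.87).

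**Figure D2:**
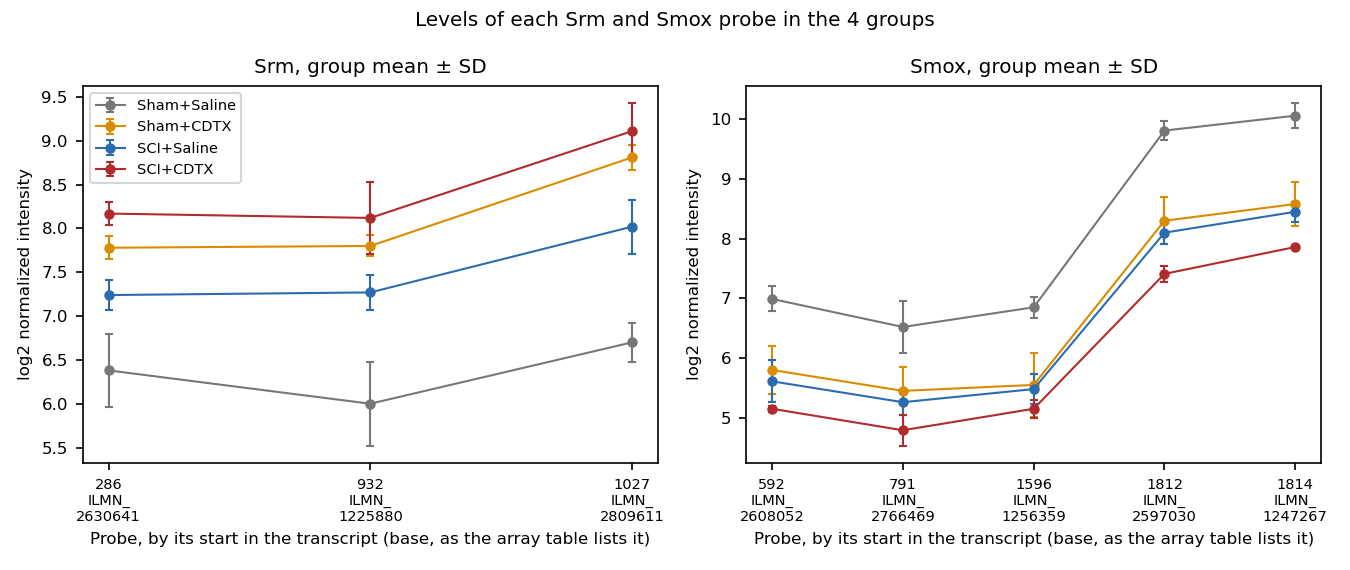
Group mean with SD of each Srm and each Smox probe in log2 normalized intensity (y axis), ordered by the start of the probe in the transcript (x axis, not to scale); n = 3 in SCI+CDTX and 4 in the others. The order of the 4 groups is the same on every Srm probe and the same on every Smox probe, although the Smox probes differ in brightness, with means of 4.79 to 6.99 at the 3 dim probes and 7.41 to 10.06 at the 2 bright ones.

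The interaction for Srm was -1.01 on ILMN_2809611 (SE 0.26, limma adjusted p = 0.00741) and -0.95 on ILMN_1225880 (adjusted p = 0.0299), so CDTX changed Srm less in SCI than in sham mice on these probes. On ILMN_2630641 it was -0.46 and was not called (adjusted p = 0.206). With the probe difference score the values were -1.71 (adjusted p = 0.0973), -1.44 (0.232) and -1.04 (0.288), larger in size and none called. Median scaling gave -1.58, -1.38 and -0.96, all called. Without the score, the call on ILMN_1225880 was lost when any of SCI+CDTX replicate 1 (adjusted p = 0.0632), SCI+CDTX replicate 4 (0.106), SCI+Saline replicate 2 (0.0592), Sham+CDTX replicate 2 (0.0508) or Sham+CDTX replicate 3 (0.0574) was left out, and also with uncorrected background (-0.42, adjusted p = 0.11), no detection filter (adjusted p = 0.0702) and the replicate block (-0.88, adjusted p = 0.0568). On ILMN_2809611 the uncorrected value was -0.61, and ILMN_2630641 was called without Sham+Saline replicate 1 (-0.66, adjusted p = 0.0338).

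Amd2 and Sms gave little signal. The Amd2 probe, for S-adenosylmethionine decarboxylase, was detected on 16 of 16 arrays but dim, with raw intensities of 121.1 to 163.3 on the 15 arrays used. Group means were 6.57 ± 0.57 in Sham+Saline, 6.11 ± 0.38 in SCI+Saline, 5.67 ± 0.21 in Sham+CDTX and, for SCI+CDTX, 5.44 ± 0.1 (SD, n = 4, 4, 4 and 3), with overlap between saline and CDTX arrays in sham mice. It was lower with CDTX by -0.89 in sham mice (SE 0.23, limma adjusted p = 0.00356) and by -0.67 in SCI mice (SE 0.25, adjusted p = 0.0368), and no other Amd2 comparison was called. Raw intensities overlapped in all 4 groups, and median scaling gave -0.11 and -0.32, neither called. The score fit gave -1.48 in sham mice (adjusted p = 0.0816). The call in SCI mice was lost without any SCI+CDTX array and without SCI+Saline replicate 2 or 3 (-0.54 to -0.72, adjusted p = 0.0571 to 0.111), and SCI in saline muscle was called without Sham+Saline replicate 4 (-0.71, adjusted p = 0.0145). All 16 arrays (-0.56, adjusted p = 0.0812), uncorrected background, no detection filter and the replicate block each ended the call in SCI mice too. Amd2 is a near copy of Amd1, and the gene identifier that the array gives this probe, 11703, is not in the RefSeq table, so which of the loci it reads is not settled. A probe for a predicted locus similar to this enzyme, LOC100041585, whose gene identifier RefSeq now gives to Amd2, was called in none of the 5 comparisons, with a lowest adjusted p of 0.103. The Sms probe, for spermine synthase, was detected on 0 of 16 arrays, at raw intensities of 82.8 to 110.

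Smox, spermine oxidase, which turns spermine back into spermidine, moved opposite to Srm. On its brightest probe, ILMN_1247267, the Sham+Saline arrays stood at 10.31, 10.17, 9.91 and 9.86, and the Sham+CDTX arrays at 8.21, 9.07, 8.41 and 8.63. SCI+Saline arrays were at 8.66, 8.42, 8.49 and 8.24, and SCI+CDTX arrays at 7.88, 7.88 and 7.81. The Sham+Saline arrays lay above all others, the SCI+CDTX arrays below all others, and the remaining groups overlapped. Means were 10.06 ± 0.21, 8.58 ± 0.37, 8.45 ± 0.17 and 7.86 ± 0.04 in that order (SD, n = 4, 4, 4 and 3). The same order of group means held on all 5 Smox probes.

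SCI lowered this Smox probe by -1.61 log2 in saline muscle (3.05-fold, SE 0.17, limma adjusted p = 1.24e-06) and by -0.72 in CDTX muscle (1.65-fold, SE 0.18, adjusted p = 0.0055). CDTX lowered it by -1.48 in sham mice (2.79-fold, SE 0.17, adjusted p = 1.03e-06) and by -0.59 in SCI mice (1.51-fold, SE 0.18, adjusted p = 0.0134). The overlapping probe ILMN_2597030 gave -1.71, -0.89, -1.5 and -0.69 in the same order, all called. In raw intensity ILMN_1247267 ran from 775.3 to 889 in Sham+Saline, 417 to 733.4 in Sham+CDTX, 389.8 to 469.6 in SCI+Saline and 349 to 392.5 in SCI+CDTX. The fall with CDTX in SCI mice was not called on either bright probe after median scaling (-0.4 and -0.46, adjusted p = 0.0667 and 0.0529). The authors' deposited means of ILMN_1247267 were 250.3 in SCI+CDTX, 306.1 in SCI+Saline and 411.2 in Sham+CDTX. Their own difference p-value against SCI+CDTX was 0.58383 for SCI+Saline and 0.04887 for Sham+CDTX. On ILMN_2597030 it was 0.43055 and 0.01355.

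The 3 dim Smox probes fell by -1.26 to -1.39 with SCI in saline muscle and by -1.07 to -1.3 with CDTX in sham mice, all called. With uncorrected background these falls were called too but smaller, at -0.53 to -0.66 and -0.46 to -0.59. With SCI in CDTX muscle, ILMN_2608052 (-0.64, limma adjusted p = 0.027) and ILMN_2766469 (-0.66, adjusted p = 0.0391) were called and ILMN_1256359 (-0.4, adjusted p = 0.209) was not. None of the 3 was called with CDTX in SCI mice, where the differences were -0.45, -0.47 and -0.33. Leaving out SCI+CDTX replicate 1 or 3 or Sham+CDTX replicate 2 or 4 ended both calls in CDTX muscle (-0.45 to -0.64, adjusted p = 0.0572 to 0.169), and leaving out SCI+CDTX replicate 4 ended that of ILMN_2608052 (-0.67, adjusted p = 0.0636). Both were also lost with uncorrected background (-0.23 and -0.2, adjusted p = 0.0873 and 0.177), no detection filter (0.0598 and 0.0932) and the replicate block (0.0522 and 0.0686). Without Sham+CDTX replicate 1, ILMN_1256359 was called there (-0.62, adjusted p = 0.0236), and without SCI+Saline replicate 4, ILMN_2608052 was called with CDTX in SCI mice (-0.58, adjusted p = 0.0325). Their raw intensities lay between 107.5 and 192.2 on all arrays, and those of Sham+CDTX overlapped those of Sham+Saline on each, so the raw values alone did not separate these groups. After median scaling the CDTX effect in sham mice was -0.39, -0.33 and -0.53 on these probes and none was called, while on the bright pair it was -0.91 on each and called. With the probe difference score, the fall with CDTX in sham mice was called on ILMN_2597030 (-1.31, adjusted p = 0.036) and ILMN_2608052 (-1.54, adjusted p = 0.0335), and not on ILMN_1247267 (-0.8, adjusted p = 0.193), ILMN_1256359 (-0.94, adjusted p = 0.219) or ILMN_2766469 (-1.03, adjusted p = 0.198). In that fit the fall with SCI in CDTX muscle was called only on ILMN_1247267 of the 5 (-1.26, adjusted p = 0.0354), and that with SCI in saline muscle was called on all 5.

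The Smox interaction was positive, so the fall with CDTX was smaller in SCI than in sham mice, by 0.89 on ILMN_1247267 (SE 0.25, limma adjusted p = 0.0142), 0.81 on ILMN_2597030 (SE 0.25, adjusted p = 0.0258) and 0.97 on ILMN_1256359 (SE 0.31, adjusted p = 0.0266). On ILMN_2608052 (0.74, adjusted p = 0.0696) and ILMN_2766469 (0.6, adjusted p = 0.189) it was not called. Neither median scaling (0.51, 0.45 and 0.51 for the 3 called probes) nor the score covariate (0.28, 0.65 and 0.67) kept any of these calls. With all 16 arrays ILMN_1247267 (0.76, adjusted p = 0.0643) and ILMN_1256359 (0.93, adjusted p = 0.0554) were not called, and ILMN_1256359 was also lost with no detection filter (adjusted p = 0.064) and ILMN_2597030 with array weights (0.68, adjusted p = 0.052). With uncorrected background all 3 were called, at 0.85, 0.8 and, for ILMN_1256359, 0.48. The ILMN_1256359 call was also lost without SCI+CDTX replicate 1, SCI+CDTX replicate 3, SCI+Saline replicate 2 or Sham+Saline replicate 1 (0.9 to 0.94, adjusted p = 0.0533 to 0.0592). The ILMN_2597030 call was lost without SCI+CDTX replicate 3, SCI+Saline replicate 2, Sham+CDTX replicate 1, Sham+CDTX replicate 3 or Sham+Saline replicate 2 (0.66 to 0.77, adjusted p = 0.051 to 0.0705). ILMN_2608052 was called without SCI+Saline replicate 1 (0.89, adjusted p = 0.0285) or Sham+CDTX replicate 2 (0.93, adjusted p = 0.016). It was also called with uncorrected background and with the replicate block (lower adjusted p of these, 0.0275).

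**Figure D3:**
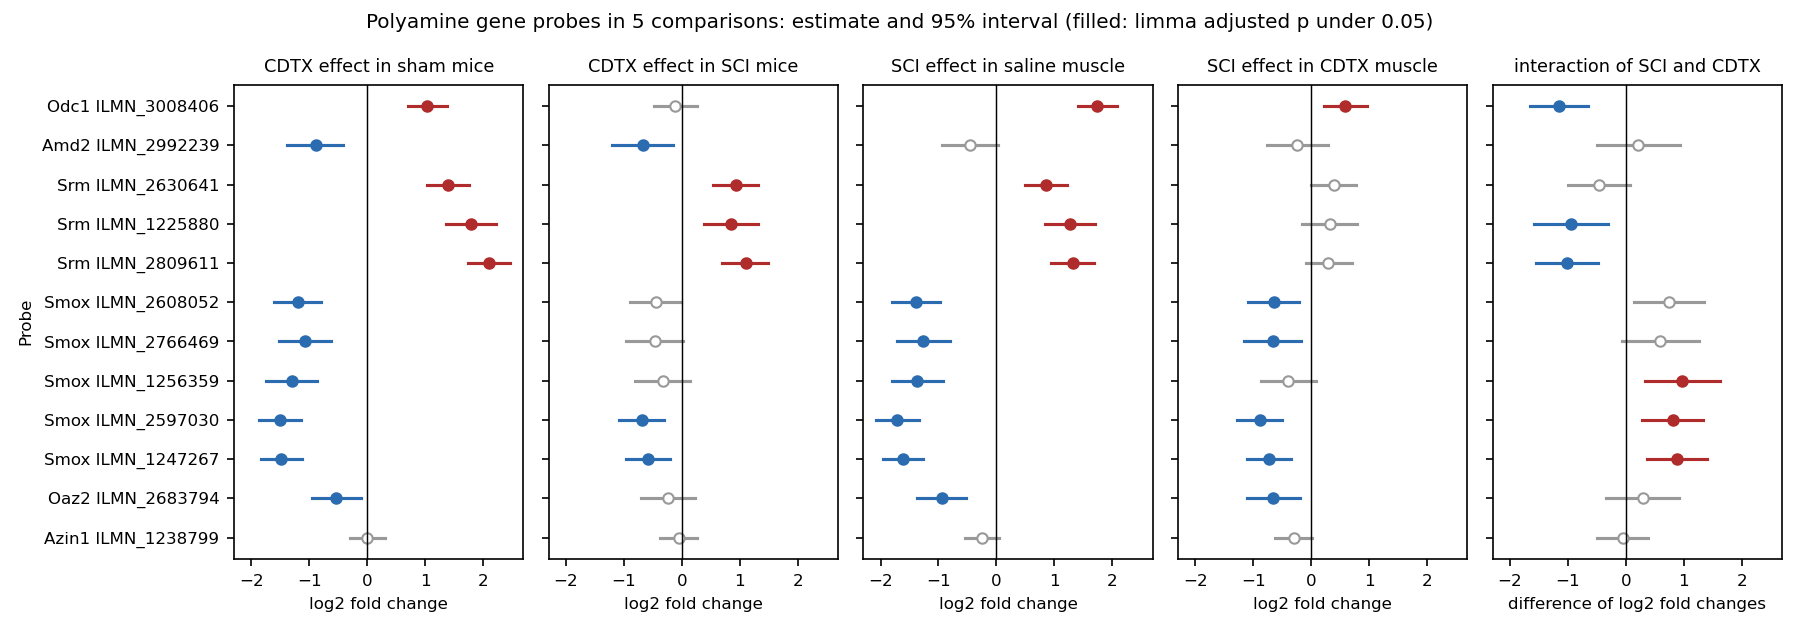
Estimated log2 fold change (points) with its 95% interval (lines) of the 12 kept polyamine probes in 4 comparisons and, in the last panel, the interaction; filled points had a limma adjusted p under 0.05, red higher and blue lower. All 3 Srm probes lie right of 0 and all 5 Smox probes left of 0 in each of the 4 comparisons, and in the interaction panel these sides are exchanged.

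Oaz2, an antizyme that binds ornithine decarboxylase and promotes its breakdown, was highest in Sham+Saline, at 9.91, 9.94, 9.55 and 9.82. Sham+CDTX arrays were at 9.22, 9.66, 8.98 and 9.23, SCI+Saline arrays at 8.69, 8.32, 9.1 and 9.33, and SCI+CDTX arrays at 8.96, 8.44 and 8.47. The Sham+Saline arrays lay above both SCI groups, and the Sham+CDTX arrays above the SCI+CDTX arrays by a gap from 8.96 to 8.98, while CDTX and saline arrays overlapped within each surgery. SCI lowered Oaz2 by -0.94 in saline muscle (SE 0.2, limma adjusted p = 0.0017) and by -0.65 in CDTX muscle (SE 0.22, adjusted p = 0.0308), and CDTX lowered it by -0.53 in sham mice (SE 0.2, adjusted p = 0.0378). In SCI mice the CDTX difference was -0.24 and the interaction 0.29, neither called. After median scaling the CDTX effect in sham mice was -0.01 (adjusted p = 0.971) and the SCI effect in saline muscle -0.53 (adjusted p = 0.0745), and in raw intensity Sham+CDTX (709 to 1017.8) was not below Sham+Saline (626.6 to 821.4). The score fit gave -0.13 with CDTX in sham mice (adjusted p = 0.893). The -0.65 was lost in that fit (-0.89, adjusted p = 0.232) and without SCI+CDTX replicate 3 or 4 or Sham+CDTX replicate 2 or 4 (-0.53 to -0.67, adjusted p = 0.053 to 0.126), and the -0.53 in sham mice was lost without any 1 of 6 arrays: Sham+Saline replicate 1, 2 or 4 or Sham+CDTX replicate 1, 3 or 4 (-0.44 to -0.53, adjusted p = 0.061 to 0.119). Both of these calls were also lost with no detection filter and with the replicate block.

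Azin1, an antizyme inhibitor that frees ornithine decarboxylase, was near background. Of the arrays used, its probe was detected on 3 of 4 in Sham+Saline, 3 of 4 in Sham+CDTX, 0 of 4 in SCI+Saline and 0 of 3 in SCI+CDTX. Raw intensities on these arrays ran from 91.7 to 117.3. The probe passed the filter only through the sham arrays. Both SCI groups were not detected, so their levels are only bounds, no fold is given and no call of this probe is read as a result. In the reported fit it was not called, and it is counted among the 12 kept probes. With SCI in CDTX muscle it passed the limma threshold under median scaling (adjusted p = 0.0409) and with array weights (adjusted p = 0.0167). A bright probe for a predicted locus similar to an antizyme, LOC100045697, had means of 11.41 in Sham+Saline, 11.4 in Sham+CDTX, 11.08 in SCI+Saline and 11.38 in SCI+CDTX and was called in none of the comparisons (lowest limma adjusted p = 0.114).

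For acetylation, the other route of breakdown, the table holds a probe for a predicted locus similar to spermidine/spermine N1-acetyltransferase, LOC100047261, which was chosen from the table's definition lines after values were seen and is no member. Its levels were 9.27, 9.17, 9.02 and 9.31 in Sham+Saline and 11.13, 10.73, 10.87 and 10.9 in Sham+CDTX. SCI+Saline arrays were at 9.89, 9.88, 9.12 and 9.76, and SCI+CDTX arrays at 10.3, 10.79 and 10.18. CDTX and saline arrays did not overlap within either surgery, and Sham+CDTX had the highest mean. CDTX raised it by 1.71 in sham mice (SE 0.18, limma adjusted p = 3.14e-07) and by 0.76 in SCI mice (SE 0.19, adjusted p = 0.0035), with an interaction of -0.96 (adjusted p = 0.0118). In the score fit both rises were called (1.94 and 0.7) and the interaction was not (-1.24, adjusted p = 0.252). The SCI effect was 0.47 in saline muscle (adjusted p = 0.0514) and -0.48 in CDTX muscle (adjusted p = 0.0653), neither called, while after median scaling both were (1.04 and -0.51, adjusted p = 0.000121 and 0.0468). Sat2, a gene named for its likeness to this acetyltransferase, went the other way, with -0.6 in sham mice (adjusted p = 0.00541) and -0.61 in SCI mice (adjusted p = 0.00933) with CDTX, both lost under median scaling (0.14 and -0.25). Paox, the oxidase of acetylated polyamines, rose with CDTX by 0.53 in sham mice (adjusted p = 0.00391) and 0.52 in SCI mice (adjusted p = 0.00874), calls that held with the score (1.69 and 0.61) and after median scaling (1.12 and 0.59). Sat2 and Paox were named after their values were seen.

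Counted over the 12 kept probes, which are not independent since 5 are Smox and 3 are Srm, CDTX in sham mice raised 4 and lowered 7 (limma, adjusted p under 0.05), where 23.1% of all kept probes were called higher and 25.8% lower. CDTX in SCI mice raised 3 and lowered 3, against 20.4% and 22.5% of all kept probes. SCI in saline muscle raised 4 and lowered 6, against 14.8% and 14.6%. SCI in CDTX muscle raised 1 and lowered 5, against 14.9% in each direction. The interaction was called on 3 probes above 0 and 3 below, against 12% and 11.6%. The median fold change of the 12 probes was -0.71, -0.28, -0.7 and -0.35 in the same order, and -0.04, -0.05, -0.01 and 0.01 over all kept probes. Of the 5 synthesis probes, 4 rose and 1 fell with CDTX in sham mice and 4 rose with SCI in saline muscle. The 5 breakdown probes all fell in both, but all 5 are Smox, so this describes that gene and not breakdown as a whole. After median scaling the calls were 4 higher and 2 lower with CDTX in sham mice, 3 and 0 with CDTX in SCI mice, 0 and 6 with SCI in CDTX muscle and 0 and 4 in the interaction. The 6 with SCI in CDTX muscle include Azin1, which was undetected in both SCI groups. With uncorrected background they were 2 and 3 with SCI in CDTX muscle and 4 and 2 in the interaction. With the score covariate the calls in sham mice numbered 3 higher and 2 lower, those with SCI in CDTX muscle 1 and 1, and the interaction 0, with 4 probes at an unadjusted p under 0.05.

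**Figure D4:**
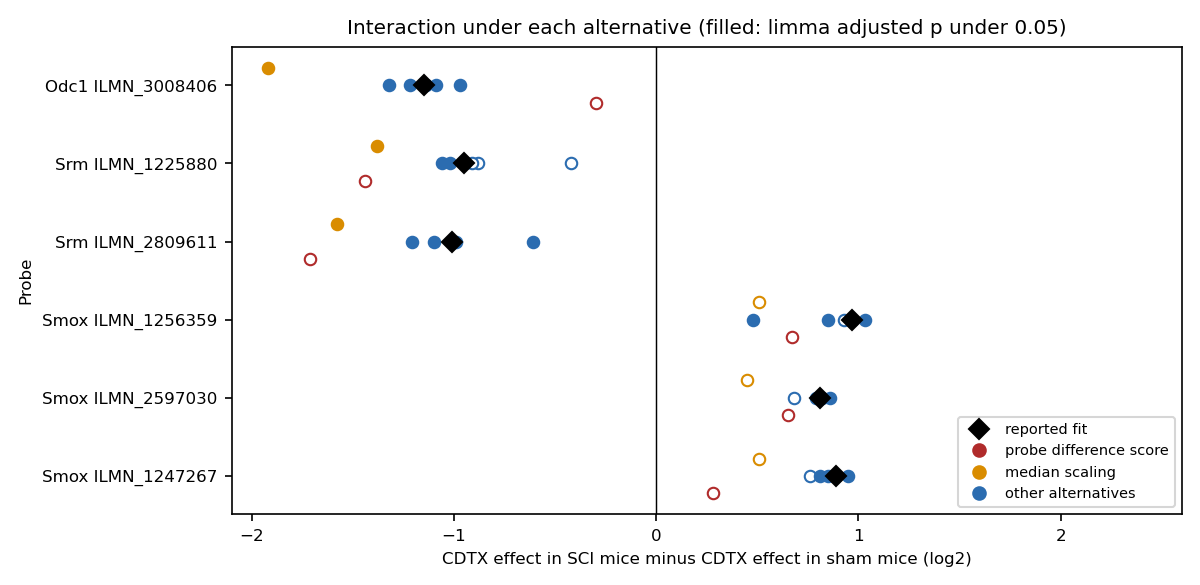
Interaction (CDTX effect in SCI mice minus that in sham mice, log2, x axis) for the 6 polyamine probes on which it was called, with the reported value as a diamond and each alternative as a circle, filled where the limma adjusted p was under 0.05. Every value keeps its side of 0; all 6 circles of the probe difference score are open, and the Smox circles of median scaling are open while those of Odc1 and Srm are filled.

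Markers of other cells moved with the same groups, and their part in these results was not tested. The 12 muscle fibre markers summed to 155776 to 166066 in Sham+Saline, above the other groups (132991 to 152956). Group means of Smox and Oaz2 were also highest in Sham+Saline, although its Oaz2 arrays overlapped those of Sham+CDTX. Of the 12 fibre markers, 2 to 4 were called lower in each of the 4 comparisons and 0 to 2 higher. All of the 12 macrophage markers rose with CDTX under both surgeries (limma), and their summed intensity was 978 to 5063 in SCI+Saline and 1267 to 2454 in Sham+Saline, against 15301 to 22844 in SCI+CDTX and 21150 to 24580 in Sham+CDTX. The 6 proliferation markers kept of 10 also rose with CDTX under both surgeries, from 37 to 311 over the saline arrays to 727 to 1366 over the CDTX arrays. Srm and the acetyltransferase-like probe were likewise higher on the CDTX arrays. Of 8 satellite cell and myoblast markers 5 were kept (Myod1, Myog, Chrna1, Mymk and Vcam1), without Pax7, Myf5 and Cdh15. Their sum was 538 to 627 in Sham+Saline, 1742 to 2362 in Sham+CDTX, 2409 to 2560 in SCI+CDTX and 2914 to 3746 in SCI+Saline, the order of the group means of Odc1. With CDTX, 4 rose and 0 fell in sham mice, but 1 rose and 1 fell in SCI mice. With SCI, 3 rose and 0 fell in saline muscle, and 2 rose and 1 fell in CDTX muscle. The 8 kept endothelial markers summed to 2884 to 3364 in Sham+Saline, 1526 to 1761 in Sham+CDTX, 1490 to 1907 in SCI+Saline and 2347 to 2870 in SCI+CDTX, highest where Smox was highest but not lowest where Smox was lowest. The 8 fibroadipogenic markers, all kept, summed to 8261 to 16836 in Sham+Saline, 8434 to 13637 in SCI+Saline, 12869 to 16181 in SCI+CDTX and 21169 to 24348 in Sham+CDTX.

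Neutrophil markers set a pair of saline arrays apart. The 8 kept of 10, without Cxcr2 and Ngp, summed to 12510 on Sham+Saline replicate 4, against 91 to 143 on the other Sham+Saline arrays, and to 13834 on SCI+Saline replicate 4, against 2100 to 3958. The sums were 624 to 972 in Sham+CDTX and 3332 to 5721 in SCI+CDTX. With both of those saline arrays left out, a fit added after the data were seen, every Odc1 call, every call on the brightest Srm probe and every call on the bright Smox pair held (limma). The Srm ILMN_1225880 interaction was lost (-0.91, adjusted p = 0.0531). Smox ILMN_2608052 with CDTX in SCI mice (-0.59, adjusted p = 0.0294) and Amd2 with SCI in saline muscle (-0.65, adjusted p = 0.031) were gained.

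Genes that supply, move and use polyamines were taken from a list of 40, of which 27 had a kept probe (the brightest was used). With CDTX, 9 rose and 4 fell in sham mice, where 23.1% and 25.8% of all kept probes did, and 6 rose and 6 fell in SCI mice, against 20.4% and 22.5% (limma). With SCI, 4 rose and 4 fell in saline muscle, against 14.8% and 14.6%, and 4 rose and 5 fell in CDTX muscle, against 14.9% each. The medians of the 27 were 0.11, 0.03, 0.06 and -0.06 in that order. With the score covariate the counts were 5 and 1, 7 and 6, 4 and 5, and 0 and 2, and none of the 27 interactions was called (0 higher and 0 lower). After median scaling they were 15 and 3, 9 and 4, 8 and 1, and 4 and 6. Both alternatives were chosen for these genes after the data were seen.

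Of the genes of precursor supply, Arg1, the arginase that makes ornithine and a gene that macrophages are known to express, rose in all 4 comparisons. It was detected on 0 of 4 Sham+Saline arrays and 2 of 4 SCI+Saline arrays. The fold of Sham+CDTX over Sham+Saline is therefore a lower bound, taken against the lowest detected signal of each array. CDTX in sham mice raised it at least 2.71-fold (limma adjusted p = 0.00672). SCI in saline muscle was also called (adjusted p = 0.0459), with no fold given. The SCI+Saline mean of 5.78 ± 1.71 (SD, n = 4, range 4.27 to 7.68) takes in undetected arrays. In SCI mice CDTX raised it by 2.17 against that partly undetected group (SE 0.59, adjusted p = 0.00621), a call that held with the score (2.04, adjusted p = 0.0258). SCI raised it by 1.74 in CDTX muscle (adjusted p = 0.0331). The other calls of Arg1 did not hold with the score (adjusted p = 0.224, 0.0592 and 0.754), nor did that in saline muscle after median scaling (adjusted p = 0.0561). Its mean was 7.96 ± 0.57 in SCI+CDTX and 6.22 ± 0.68 in Sham+CDTX (SD, n = 3 and 4).

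Aldh18a1, which makes the precursor of proline and ornithine from glutamate, rose with CDTX in SCI mice (1.05, and 0.97 with the score), and its rise in sham mice (1.73) and fall with SCI in CDTX muscle (-0.79) were lost with the score (1.18 and -0.36). Oat, which exchanges ornithine and glutamate semialdehyde, fell with SCI in saline muscle (-0.47, and -0.44 with the score), a call lost under median scaling (0.03). Its fall with CDTX in sham mice (-0.64) and the rise there of Ass1 (1.16), an enzyme that rebuilds arginine, were lost with the score (-0.36 and 0.44).

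Among transport genes, Slc3a2, the heavy chain of several amino acid transporters, rose with SCI in saline muscle (1.17) and with CDTX in SCI mice (0.74), both also with the score (1.3 and 0.9). Its rise with SCI in CDTX muscle was 1.85, and 0.73 and not called with the score, while with CDTX in sham mice it was 0.06, and 1.47 and called with the score (adjusted p = 0.0444). Slc7a2, a carrier of arginine and ornithine, fell with CDTX in SCI mice (-1.25, and -1.41 with the score), and its fall with SCI in CDTX muscle (-1.25) was 0.27 and not called with the score. Atp13a2, a lysosomal exporter of polyamines, rose with CDTX in sham (1.02) and SCI mice (1.26), both also with the score (1.58 and 1.32), and fell with SCI in saline muscle (-0.66), a call lost under median scaling (-0.28).

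Apip and Adi1 recycle the methylthioadenosine that Srm and Sms release. Both fell with CDTX in SCI mice, Apip by -0.77 and Adi1 by -0.84, and with the score by -0.61 and -0.9. The fall of Apip with CDTX in sham mice (-1.87), its rise with SCI in CDTX muscle (0.67) and the fall of Adi1 there (-0.79) were lost with the score (-0.26, -0.63 and 0.12).

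Among genes that use the same substrates or the product, the score turned the sign of called changes in Gamt and Mat2b. This happened only in comparisons with Sham+CDTX, where the score fit rests mostly on the excluded array and cannot settle the direction. Gamt, which spends S-adenosylmethionine on making creatine, rose with CDTX in SCI mice (0.98, and 1.33 with the score) and fell with SCI in saline muscle (-1.5, and -1.17). In the comparisons with Sham+CDTX it was lower with CDTX in sham mice (-1.45) and higher with SCI in CDTX muscle (0.93), but 2.19 and -2.02 with the score, each called in the opposite direction. Its interaction of 2.43 (SE 0.35, limma adjusted p = 0.000105) was -0.85 with the score (adjusted p = 0.573). Mat2b, a regulatory subunit of S-adenosylmethionine synthesis, fell with CDTX in SCI mice (-0.64, and -0.86 with the score), a call lost under median scaling (-0.39). With CDTX in sham mice it was 0.44, and -1.82 with the score, both called, and its fall with SCI in CDTX muscle (-1.46) was 0.38 with the score and not called. Eif5a, the translation factor that carries the spermidine-derived residue hypusine, rose with CDTX in sham mice (0.81), a call lost with the score (0.75, adjusted p = 0.279). Myc, a transcription factor known to bind the Odc1 gene, was dim, with group means of 4.36 to 4.69, was detected on 0 of 4 arrays in both sham groups and was not called in any comparison.

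**Figure D5:**
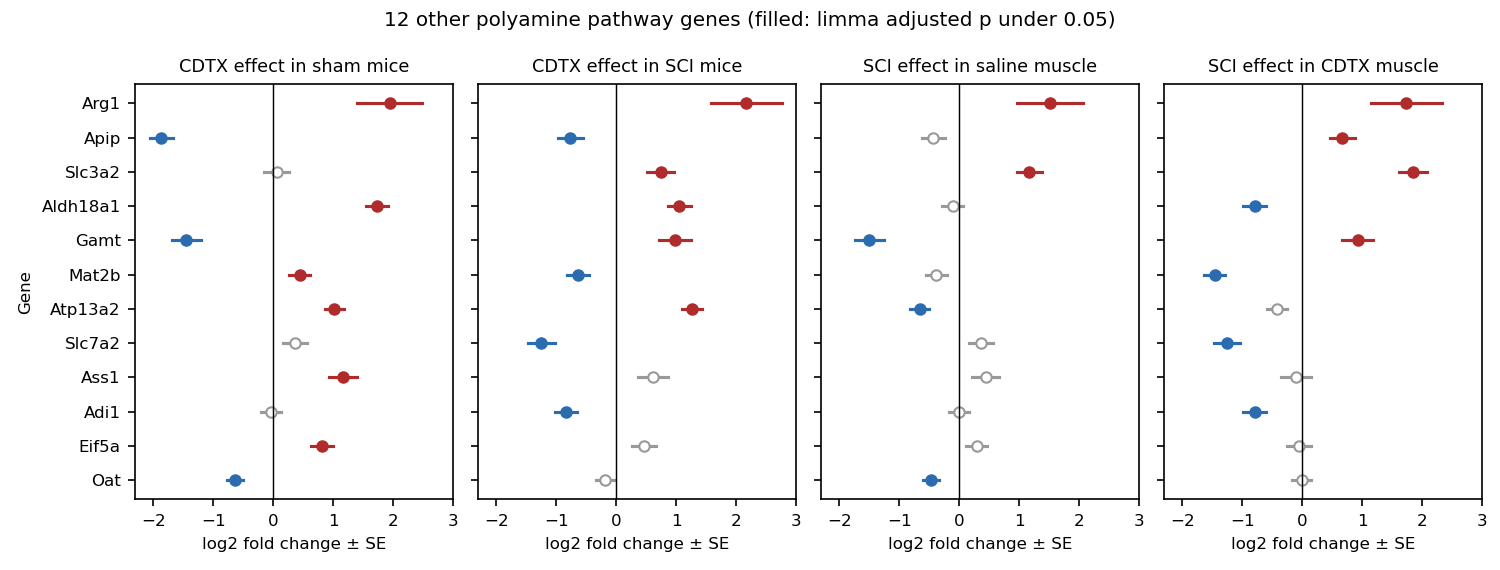
Log2 fold change with its SE of the 12 other polyamine pathway genes with the largest called change, in 4 comparisons; filled points had a limma adjusted p under 0.05, red higher and blue lower. Arg1 lies right of 0 in every panel, and its points against Sham+Saline are measured differences from an undetected group. Gamt changes side between panels, and with the probe difference score as a covariate, not drawn here, its values against Sham+CDTX take the opposite sign.

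The member whose group means ranged most was Srm ILMN_2809611, at 2.41 log2 between its lowest and highest group. The genes with the most similar pattern over the 4 group means, after centring, were Mmp3 (root mean square difference 0.128 log2), Gsta2 (0.154) and S100a10 (0.156). Mmp3, a matrix metalloproteinase, had means of 6.81 in Sham+Saline, 7.82 in SCI+Saline, 8.71 in Sham+CDTX and, for SCI+CDTX, 8.9. With 4 points this is a description of likeness only.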

How the data were processed

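The deposited table holds, per the file headers, the mean bead intensity of each probe on 16 arrays with no normalization or background subtraction, and gives each value its detection p-value and its bead count. GenomeStudio 2011.1 is named in the submitters' processing notes. The authors also deposited group means of intensity after their own normalization, with a difference p-value against SCI+CDTX. Unused per-sample columns numbered 0.

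From the 15 arrays of the authors' final analysis, intensities were background-corrected from the detection p-values, offset by 16, quantile normalized and set to log2 (neqc in limma 3.58.1, R 4.3.3, data.table version 1.17.8). Probes were kept as separate measurements. One limma model, with a mean for each of the 4 groups, took in all 14763 kept probes, and p-values were adjusted by Benjamini-Hochberg over all of them, with calls at an adjusted p under 0.05. No adjustment was made over the 5 comparisons. Gene names are the table's, checked against RefSeq by Entrez identifier, which matched for 23681 probes. The fit was tested on simulated data.

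The members, the gene lists and the tests were chosen with earlier results of these data known. All kept member probes are named. Of the other pathway genes, values are given for the 12 with the largest called change, and Myc, Sat2 and Paox were named in addition after their values were seen. The 3 predicted loci were likewise added after values were seen. The labels name each array as a mouse sample without saying more on its origin, so p-values measure only the spread between these samples. 1 marker list is not reported here. No pair of arrays held identical values. The number of arrays limits the precision. Alternatives were all 16 arrays, array weights, median scaling, uncorrected background, normalization within each slide, no or a stricter detection filter (a group with all arrays at p under 0.01), trended robust eBayes, only the groups compared, the replicate number as a block, the probe difference score as a covariate, each array left out in turn and, added after the data were seen, both saline arrays highest in neutrophil markers left out. For the other pathway genes and predicted loci, the score covariate and median scaling were run, also added after the data were seen.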

Additional observations from a re-analysis of the deposited data

Results flagged for a closer look

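The effect of CDTX differed between SCI and sham mice on 6 of the 12 polyamine probes, by limma's test of the interaction. Of all kept probes, 12% were called above 0 and 11.6% below. The 6 probes stand only for Odc1, Srm and Smox, and Smox ILMN_2597030 and ILMN_1247267 overlap by 49 bases. Odc1 ILMN_3008406 had an interaction of -1.15, Srm ILMN_1225880 of -0.95 and Srm ILMN_2809611 of -1.01. The Smox probes ILMN_1256359, ILMN_2597030 and ILMN_1247267 had interactions of 0.97, 0.81 and 0.89. None passed the threshold with the probe difference score as a covariate. In that fit the values were nearer 0 on Odc1 (-0.3) and the Smox probes (0.28 on ILMN_1247267). On Srm they were further from 0, at -1.44 on ILMN_1225880 and -1.71 on ILMN_2809611. The fit has little precision for the interaction, because the score nearly coincides with Sham+CDTX, and does not decide whether the interaction holds. No sample of a group of 4 stood far from the others by Dixon's criterion in the 36 sets of 4 arrays tested (0 found).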

How the results depend on the processing

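No called change of a member probe reversed under any alternative run. Of the other pathway genes, with the probe difference score as a covariate Gamt reversed with CDTX in sham mice (-1.45 to 2.19) and with SCI in CDTX muscle (0.93 to -2.02), and Mat2b reversed with CDTX in sham mice (0.44 to -1.82). These comparisons are with Sham+CDTX, with which the score nearly coincides, and the cause was not tested. The number of member probes called, of 12, was 6 with CDTX in SCI mice, 11 with CDTX in sham mice, 6 with SCI in CDTX muscle, 10 with SCI in saline muscle and 6 in the interaction. Of all 14763 kept probes, 6338, 7219, 4393, 4350 and 3483 were called in the same order. Median scaling gave 3 with CDTX in SCI mice and 6 with CDTX in sham mice, and it moved the median of all kept probes to 0.06, 0.32, -0.02, 0.17 and -0.24 in the 5 comparisons. With SCI in CDTX muscle, testing all probes with no detection filter gave 3 and the replicate block gave 3, and the block called 4034 of all kept probes there. The probe difference score gave 5 with CDTX in sham mice, 2 with SCI in CDTX muscle and 0 in the interaction (limma, with 4 at an unadjusted p under 0.05), and over all kept probes (14955 in that fit) it moved the calls from 7219 to 3094, from 4393 to 263 and from 3483 to 44. Leaving out each array gave 5 to 7, 10 to 11, 3 to 7, 10 to 11 and 3 to 7 in the same order as above, and 3 with SCI in CDTX muscle came from leaving out any SCI+CDTX array or Sham+CDTX replicate 2 or 4, while 3 in the interaction came from leaving out SCI+Saline replicate 2.

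No clear pairing of the samples by replicate number was seen. Same-numbered arrays had residual correlations from -0.271 to 0.377, and 3 of 15 arrays correlated best with their own number. With 3 to 6 pairs of arrays per number, this check cannot tell a weak pairing from none. With the replicate block, of 60 results (12 probes in 5 comparisons), 6 lost their call and 1 gained one. Each slide normalized separately was not run for comparisons across slides. The dim Amd2, Azin1 and 3 Smox probes, at raw intensities up to 192.2, limit what can be said of those transcripts.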
